A study of Mus musculus with 4 samples.

Results

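Lefty1, Lefty2, Tdgf1, Gdf3, Bmp4, Bmpr1a, Id1, Id2, Id3 and Smad7 belong to the Nodal and bone morphogenetic protein (BMP) branches of the TGF-beta superfamily and were followed in induced pluripotent stem (iPS) cells, embryonic stem (ES) cells and bone marrow mononuclear cells (BMMNCs) of the mouse. The genes were taken by name, and a probe was assigned to a gene when its RefSeq accession belonged to it. Of the 10 genes, 9 were read by 12 of the 41160 probes kept, out of 33378 genes or transcripts on the array. Smad7, an inhibitory SMAD, had no probe matched by accession and was not analysed here. The 9 genes with a probe lie on chromosomes 1 (Lefty1 and Lefty2), 2 (Id1), 4 (Id3), 6 (Gdf3), 9 (Tdgf1), 12 (Id2) and 14 (Bmp4 and Bmpr1a). All 9 were among the 21216 genes above background on at least 1 array. Lefty2 and Tdgf1 entered through the iPS and ES arrays, since neither was well above background in BMMNCs.

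Nodal and activin bind receptor pairs that phosphorylate SMAD2 and SMAD3, and Nodal needs a co-receptor such as Cripto, the product of Tdgf1. The Lefty proteins are secreted inhibitors that this branch induces and that block Nodal, which closes a negative feedback loop in the early embryo. BMP4 acts through type I receptors such as BMPR1A on SMAD1 and SMAD5, and the Id genes are its best known direct targets. Id proteins lack a DNA-binding region and hold E proteins away from DNA, and in mouse ES cells kept in LIF they restrain neural differentiation.

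The study profiled 2 iPS lines named 7 and 13, made from marrow mononuclear cells carrying an Oct4-EGFP transgene on strain C57BL/6, the ES line E14 of strain 129, and C57BL/6 BMMNCs, with 1 array per sample. Both iPS lines and the ES line were kept in serum and LIF on irradiated mouse embryonic fibroblasts, which were removed by plating on gelatin before RNA was isolated. The labels do not say how many animals gave the marrow, their age, or whether a line is 1 clone. Strain, origin and reporter differ between the iPS lines and the ES line together and cannot be told apart.

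Levels are log2 processed signals minus the 75th percentile of the same array, which was 1068 in line 7, 1069.9 in line 13, 1003 in ES cells and 581 in BMMNCs. The fluorescence unit has no absolute meaning, so a gene was compared between arrays and never with another gene. All 8 pluripotency markers, a list that includes Tdgf1, were well above background in both iPS lines and in ES cells. In BMMNCs 3 of the 8 were, and all 8 blood markers were. Fibroblast markers were well above background for 10 of 10 genes in both iPS lines and in ES cells, against 4 of 10 in BMMNCs. Their summed linear levels were 405 in line 7 and 385 in line 13, against 348 in ES cells and 8.56 in BMMNCs.

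The plot of levels by array shows the 9 genes on each of the 4 arrays.

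**Figure D1:**
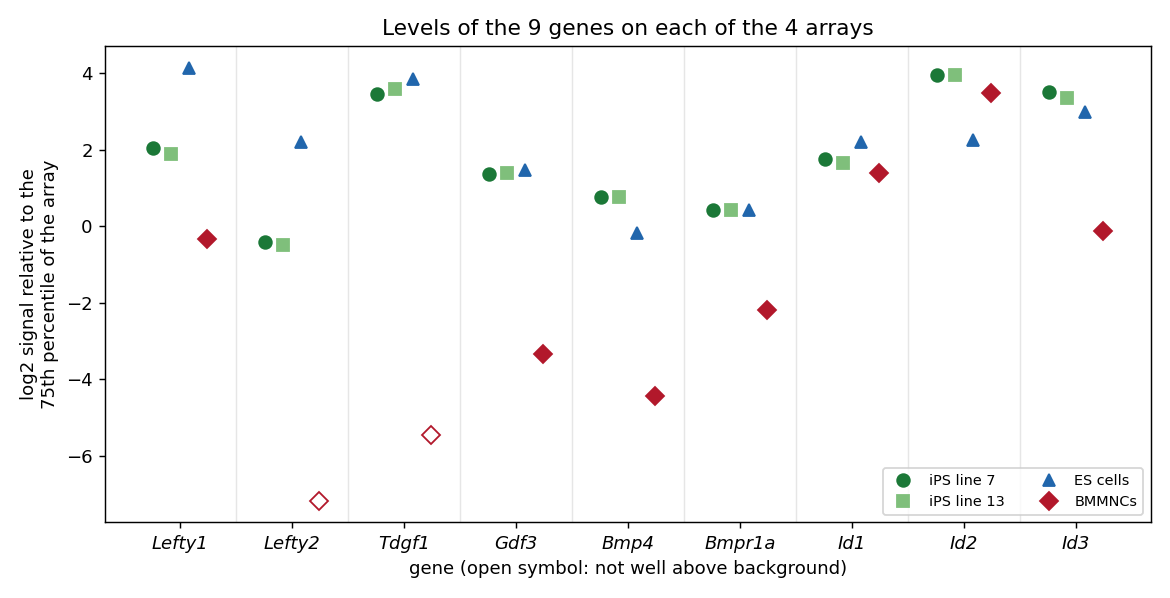
Log2 signal relative to the array's 75th percentile (vertical axis) of the 9 genes (horizontal axis) in iPS lines 7 and 13, ES cells and BMMNCs; each symbol is 1 array and open symbols are not well above background. Lefty1 and Lefty2 lie below ES cells in both lines, while Id2 lies higher in both lines than in ES cells or BMMNCs.

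The Lefty genes, inhibitors of Nodal, were the members that fell in the iPS lines against ES cells. Lefty1 was at 2.04 in line 7 and 1.88 in line 13, against 4.15 in ES cells. Both lines lay below the ES array, by 2.11 and 2.27 log2 units, and differed from each other by 0.16. The mean difference was -2.19 (SE 0.13), or 4.56-fold lower, with a limma adjusted p of 0.0425. Lefty2 was at -0.41 in line 7 and -0.49 in line 13, against 2.21 in ES cells. This is 6.31-fold lower (log2 difference -2.66, SE 0.10, limma adjusted p = 0.0425), and again both lines lay on the same side of the ES array. Lefty1 and Lefty2 are close paralogs on chromosome 1 with 3 entries between them in the RefSeq gene table, and each was read by 1 probe. Whether either probe also reads the transcript of the other gene was not tested.

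Among the pluripotency and primitive endoderm markers, Zfp42 and Sox7 were those that passed in the same comparison. Over all genes tested, 44.2% stood higher in the iPS lines than in ES cells, and all counts by direction in this comparison stand beside that share. Of the 8 pluripotency markers, Tdgf1 among them, 6 stood lower in the iPS lines, with a median difference of -0.33. Pou5f1 was nearly level (-0.02), and Dppa5a and Utf1 stood higher, by 0.12 and 0.33. The summed linear level of the 8 was 533 in line 7 and 549 in line 13, against 692 in ES cells. Most of that gap came from Zfp42. Zfp42 (Rex1) was the 1 marker of these that passed, at 3.37 in line 7 and 3.62 in line 13, against 7.19 in ES cells (log2 difference -3.69, limma adjusted p = 0.0425). Of the 8 primitive endoderm markers 4 stood higher and 4 lower, with a median difference of -0.01, and Sox7 passed. Its excess in the iPS lines was at least 9.48-fold over ES cells, where it was not well above background (limma adjusted p = 0.0425). The part of these cell states in the Lefty values was not tested.

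In this comparison 3 of the 9 genes passed, 1 higher (Id2) and 2 lower (Lefty1 and Lefty2), against 4.78% of all genes tested. By direction, 1.97% of all genes were higher and 2.81% lower. No gene on the array had an adjusted p under 0.0425. By size alone Lefty1, Lefty2 and Id2 differed 2-fold or more from ES cells in each line, against 6.51% of all genes, 2.36% higher and 4.15% lower. The fit draws its spread from the pair of iPS lines alone, with 1 residual degree of freedom, and takes the single ES and BMMNC arrays to vary in the same way. The calls of Lefty1, Lefty2 and Id2 were lost without the filter on dim probes (limma adjusted p = 0.157 for each) and with the authors' deposited value table (limma adjusted p = 0.0559 for Lefty1, and 0.0550 for Lefty2 and for Id2).

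Against BMMNCs the Lefty genes were higher in the iPS lines. Lefty1 had a BMMNC level of -0.34, well above background, and was 4.94-fold higher in iPS cells (log2 difference 2.30, SE 0.13, limma adjusted p = 0.00198) and 22.5-fold higher in ES cells. With ES and iPS arrays treated as 1 group, the Lefty1 difference from BMMNCs was 3.03 and did not pass (limma adjusted p = 0.0849). Lefty2 was not well above background in BMMNCs. The limma test of Lefty2 took the dim BMMNC value as read, with a log2 difference of 6.73 for the iPS lines (limma adjusted p = 0.000703). As a bound, its excess over BMMNCs was at least 21.6-fold for the iPS lines and at least 136.0-fold for ES cells. The bound sets the bright arrays against the lowest signal well above background on the BMMNC array and was not itself tested. Under normexp background correction, which adds an offset of 50 to every signal, the fold of Lefty2 over BMMNCs was 9.16 in the iPS lines and 54.4 in ES cells, so these bounds hold on the processed-signal scale alone. A bulk array cannot tell fewer cells that express a gene from less RNA in each cell.

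Tdgf1 and Gdf3, the Cripto co-receptor and a ligand of the same family that is typical of pluripotent cells, stood close in the iPS lines and ES cells. Tdgf1 was at 3.45 in line 7 and 3.58 in line 13, against 3.86 in ES cells, so both lines were lower. The difference of -0.34 (SE 0.11) did not pass (limma adjusted p = 0.183). With an intensity trend in the limma prior it passed (limma adjusted p = 0.00749). Gdf3 was at 1.36 in line 7 and 1.39 in line 13, against 1.46 in ES cells. Its difference of -0.09 was smaller than its SE of 0.094 (limma adjusted p = 0.578).

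Both genes were far higher in the stem cell cultures than in BMMNCs. Tdgf1 was not well above background in BMMNCs. Its limma test took that dim value as read, with a log2 difference of 8.99 for the iPS lines (limma adjusted p = 0.000703). As a bound, Tdgf1 exceeded BMMNCs at least 337.7-fold in both iPS lines on average and at least 426.7-fold in ES cells. With normexp the folds of Tdgf1 were 99.0 in the iPS lines and 122.1 in ES cells, under these bounds. Gdf3 was at -3.34 in BMMNCs and 26.2-fold higher in iPS cells (log2 difference 4.71, SE 0.094, limma adjusted p = 0.00073). In ES cells Gdf3 was 27.8-fold higher than in BMMNCs. With normexp these folds of Gdf3 were 14.2 in the iPS lines and 14.9 in ES cells.

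The plot of iPS minus ES differences gives both lines separately for each gene.

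**Figure D2:**
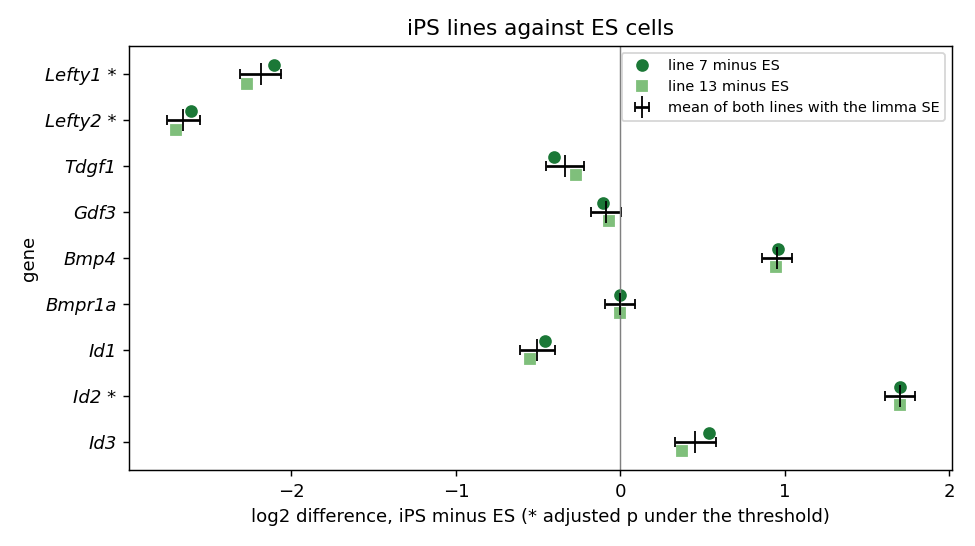
Log2 difference from ES cells (horizontal axis) of each of the 9 genes (vertical axis) in iPS line 7 (circles) and line 13 (squares); vertical ticks are the mean of both lines and bars the limma SE, and asterisks mark genes past the adjusted p threshold. Both lines lie on the same side of ES cells for every gene, from -2.66 for Lefty2 to 1.70 for Id2 in the mean.

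Bmp4, the ligand, stood higher in the iPS lines, just short of the threshold. It was at 0.77 in line 7 and 0.76 in line 13, against -0.18 in ES cells and -4.44 in BMMNCs. The lines differed from each other by 0.01 and from ES cells by 0.96 and 0.95, which is 1.93-fold (mean log2 difference 0.95, SE 0.092, limma adjusted p = 0.0520). It passed in 5 of the 8 other settings that test this comparison, where the adjusted p ran from 2.12e-07 to 0.212.

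Among the 9 genes the Bmp4 probe alone was printed in several copies, 10 spots per array, which shows the error of the measurement within an array. The spots ran from 0.71 to 0.84 in line 7 and from 0.70 to 0.83 in line 13, against -0.29 to -0.07 in ES cells and -4.73 to -4.17 in BMMNCs. No iPS spot reached the ES range, and the spot SD was 0.045 in line 7, 0.047 in line 13, 0.066 in ES cells and 0.17 in BMMNCs, where 9 of 10 spots were marked well above background. Spots of 1 array share its RNA, so they measure technical error and not the spread between cultures.

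**Figure D3:**
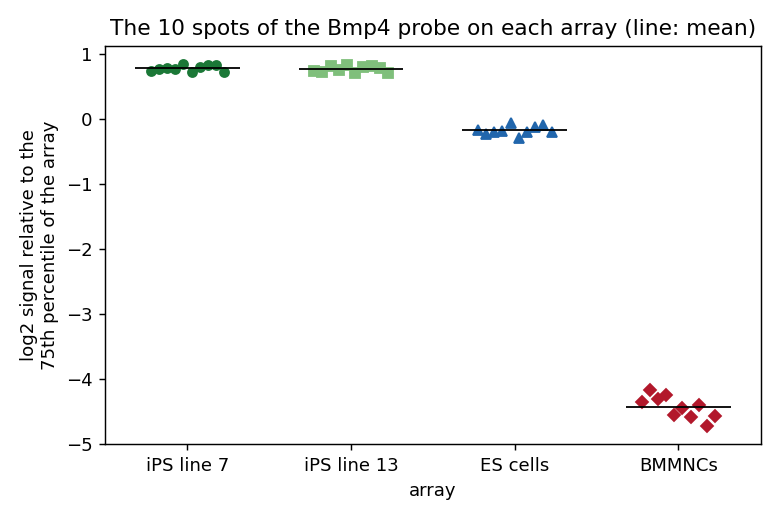
Log2 signal relative to the array's 75th percentile (vertical axis) of the 10 Bmp4 spots on each array (horizontal axis); symbols are single spots and lines their means. The iPS spots lie between 0.70 and 0.84 and the ES spots between -0.29 and -0.07, without overlap.

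Bmpr1a, the type I receptor, was level between the iPS lines and ES cells. It was at 0.43 in both iPS lines, against 0.44 in ES cells, and the difference of -0.0037 had an SE of 0.092 (limma adjusted p = 0.981). Its sign turned under 4 other settings, none of which passed. The dimmer probe of Bmpr1a gave 0.15 for iPS minus ES. Against BMMNCs, where it was at -2.20, Bmpr1a was 6.21-fold higher in iPS cells (log2 difference 2.63, SE 0.092, limma adjusted p = 0.0011) and 6.23-fold higher in ES cells. Bmp4 was 36.9-fold higher in the iPS lines than in BMMNCs (log2 difference 5.21, SE 0.092, limma adjusted p = 0.000703) and 19.1-fold higher in ES cells than in BMMNCs. With normexp these log2 differences of Bmp4 were 3.59 in the iPS lines and 2.67 in ES cells.

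The 3 Id genes did not move together. Id2 rose in the iPS lines: it was at 3.96 in both, against 2.26 in ES cells, which is 3.24-fold higher (log2 difference 1.70, SE 0.092, limma adjusted p = 0.0425). The lines lay on top of each other, well clear of the ES array. Id3 was at 3.51 in line 7 and 3.35 in line 13, against 2.98 in ES cells, so both lines were higher. Its difference of 0.46 (SE 0.12) did not pass (limma adjusted p = 0.144). Id1 went the other way, at 1.76 in line 7 and 1.66 in line 13, against 2.21 in ES cells. That difference of -0.51 (SE 0.10) did not pass either (limma adjusted p = 0.105). Under normexp background correction Id3 and Id1 both passed, Id3 higher and Id1 lower (limma adjusted p = 0.0220 and 0.0140).

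A second probe was present for Id1 and for Id2, and it gave the same direction in each case. For iPS minus ES it read 1.61 for Id2 and -0.42 for Id1, close to the 1.70 and -0.51 of the brighter probes.

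**Figure D4:**
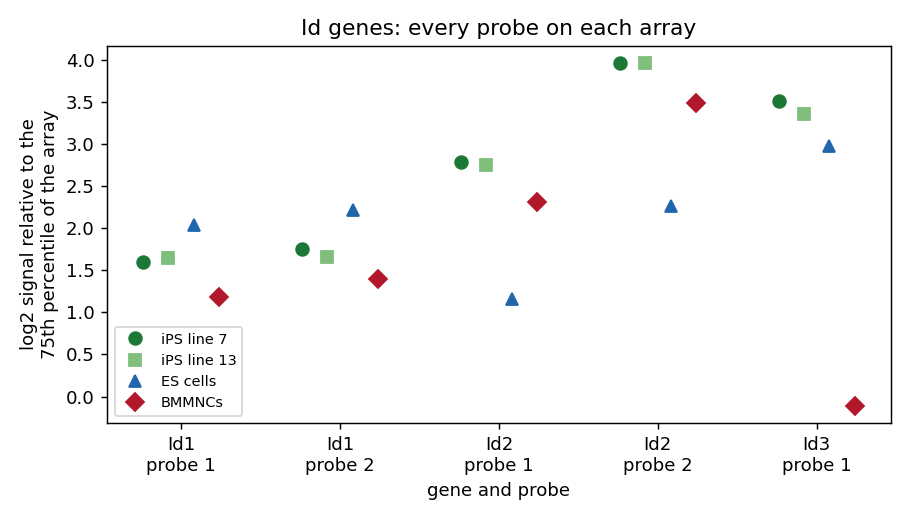
Log2 signal relative to the array's 75th percentile (vertical axis) of each Id1, Id2 and Id3 probe (horizontal axis) in iPS lines 7 and 13, ES cells and BMMNCs; each symbol is 1 array. Both Id2 probes are highest in the iPS lines, then BMMNCs, then ES cells, while both Id1 probes are highest in ES cells.

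The Id genes also differed in their level in BMMNCs. Id2, which lymphoid and myeloid cells use as well, was at 3.49 in BMMNCs. That is below both iPS lines (log2 difference 0.47 for iPS minus BMMNC, SE 0.092, limma adjusted p = 0.0250) and 2.34-fold above ES cells. The excess of the iPS lines over BMMNCs did not pass under median scaling (limma adjusted p = 0.0947) or without the filter on dim probes (limma adjusted p = 0.118). When the ES and iPS arrays formed 1 group, the Id2 difference was -0.094 (limma adjusted p = 0.931). Id1 was at 1.40 in BMMNCs, and the iPS lines were 0.31 higher (SE 0.10, limma adjusted p = 0.0785). Id3 was at -0.11 in BMMNCs and 11.7-fold higher in iPS cells (log2 difference 3.55, SE 0.12, limma adjusted p = 0.00111). From highest to lowest, Id2 ran iPS lines, BMMNCs, ES cells in the reported setting, whereas Id1 ran ES cells, iPS lines, BMMNCs. For Id1 the iPS lines were not apart by the test from ES cells or from BMMNCs in that setting. The Id1 difference from ES cells passed in 3 of 8 other settings and that from BMMNCs in 6 of 9. Id3 ran iPS lines, ES cells, BMMNCs, with iPS lines and ES cells not apart by the test.

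In the comparison of iPS lines with BMMNCs, 8 of the 9 genes were higher at the adjusted threshold, none was lower, and Id1 did not pass. Over all genes tested 75.6% passed, 38.3% higher and 37.4% lower. Lefty2 and Tdgf1 entered through the iPS and ES arrays alone, so the filter favours higher for them in every count of this paragraph. Of the 7 genes above background on all arrays, 7 passed as higher in that setting, where 84.4% of all genes passed (6042 higher and 6495 lower of 14859). By size, 7 of the 9 exceeded BMMNCs 4-fold or more in each line and none was 4-fold lower, against 15.3% of all genes higher and 14.9% lower (30.2% together). The median log2 difference of the 9 genes was 3.55, against 0.01 over all genes. Pluripotency markers (8 of 8, Tdgf1 among them), fibroblast markers (10 of 10) and trophoblast markers (5 of 5) were higher in the same comparison. In BMMNCs 3 of the 8, 4 of the 10 and 0 of the 5 were well above background. The other markers entered through the iPS and ES arrays alone, so the filter favours higher for them as well. Which cells of the cultures gave each signal was not tested. In ES cells against BMMNCs, a comparison of single arrays without a test, 7 of the 9 genes were at least 4-fold higher and none was 4-fold lower, against 17.3% higher and 15.8% lower over all genes (33.1% together). Id1 was 1.76-fold higher in ES cells and Id2 2.34-fold lower.

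Lines 7 and 13 gave nearly the same values for these genes. The log2 difference of line 7 minus line 13 ran from -0.13 for Tdgf1 to 0.16 for Lefty1 and Id3, and none of the 9 reached 2-fold, against 2.44% of all genes, 1.32% higher and 1.12% lower. These are single arrays, so no test was made.

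Promoter sequence from RefSeq, build GRCm38.p6, was found for 5 of the genes (Id2, Id3, Bmp4, Tdgf1 and Bmpr1a), each window holding 250 bases before the start and 50 after it. The 3 genes that stood higher in both iPS lines and Tdgf1, which stood slightly lower, are shown for their sites of the factors at the end of these pathways. Capitals mark the SMAD-binding core CAGAC, the GC-rich BMP SMAD site GGCGCC and the FOXH1 site TGTNNATT, searched on both strands.
Id2 promoter, chr12:25096043-25096342, minus strand: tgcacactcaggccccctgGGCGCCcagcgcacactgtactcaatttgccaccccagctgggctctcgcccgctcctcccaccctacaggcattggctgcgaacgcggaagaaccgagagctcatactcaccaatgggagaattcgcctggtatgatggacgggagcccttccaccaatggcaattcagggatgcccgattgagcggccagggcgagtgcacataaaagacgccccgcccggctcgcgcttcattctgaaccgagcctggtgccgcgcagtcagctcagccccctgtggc
Id3 promoter, chr4:136143572-136143871, plus strand: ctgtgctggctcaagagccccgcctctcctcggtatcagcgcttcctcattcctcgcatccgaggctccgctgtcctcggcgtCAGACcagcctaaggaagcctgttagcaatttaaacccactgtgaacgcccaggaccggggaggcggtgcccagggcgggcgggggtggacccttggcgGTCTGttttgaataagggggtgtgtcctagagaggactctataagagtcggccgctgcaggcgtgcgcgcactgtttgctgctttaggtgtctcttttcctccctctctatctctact
Bmp4 promoter, chr14:46390620-46390919, minus strand: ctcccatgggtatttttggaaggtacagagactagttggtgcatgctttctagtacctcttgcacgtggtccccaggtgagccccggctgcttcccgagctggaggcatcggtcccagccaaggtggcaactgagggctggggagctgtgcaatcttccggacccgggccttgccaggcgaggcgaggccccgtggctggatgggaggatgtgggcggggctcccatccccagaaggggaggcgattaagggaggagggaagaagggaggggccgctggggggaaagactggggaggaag
Tdgf1 promoter, chr9:110946109-110946408, minus strand: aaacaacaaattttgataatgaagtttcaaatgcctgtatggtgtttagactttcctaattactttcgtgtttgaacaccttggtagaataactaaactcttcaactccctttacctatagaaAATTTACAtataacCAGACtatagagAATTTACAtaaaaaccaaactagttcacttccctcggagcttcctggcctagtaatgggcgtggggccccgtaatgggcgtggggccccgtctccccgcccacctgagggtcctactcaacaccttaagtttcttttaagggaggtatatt

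The Tdgf1 window held 2 FOXH1 sites on either side of 1 CAGAC. FOXH1 is the DNA-binding partner of SMAD2 in Nodal signalling. TGTNNATT occurred in 12.2% of 32851 promoter windows of the same length. The Id3 window held 2 CAGAC sites, a motif present in 49.6% of windows, and the Id2 window 1 GGCGCC, present in 11.9%. The Bmpr1a window also held 1 GGCGCC, and these letters were not found in the Bmp4 window. A match describes the sequence and does not show that a factor binds there.

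Other genes of the pathways were read from lists by role. On the Nodal and activin side, the 4 ligand and convertase genes tested were Inhba, Inhbb, Gdf1 and Furin. Nodal itself was not among those tested, so its level is not known here. None of the 4 passed for iPS against ES cells, although 3 of them had an unadjusted p under 0.05. Over all genes tested, 31.1% had one (6590 of 21216), and the counts at this level that follow stand beside that share. Inhba was at 5.92 in line 7 and 5.76 in line 13, against 5.36 in ES cells (limma adjusted p = 0.133). Inhbb was at 2.04 in line 7 and 2.03 in line 13, against 1.71 in ES cells (limma adjusted p = 0.15). Gdf1, chosen after its values were seen, stood lower, at 0.94 in line 7 and 1.03 in line 13, against 1.84 in ES cells. Its log2 difference was -0.85 (SE 0.10, limma adjusted p = 0.0633). None of the 5 receptors and co-receptors tested passed in limma (1 at an unadjusted p under 0.05), and Acvr2b, a type II receptor, differed by -0.24 (SE 0.092). Apart from the Lefty genes, the 3 other antagonists tested did not pass. One of these is Fstl3, a follistatin-like inhibitor of activin, with a difference of 0.08 (SE 0.13).

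Of the 7 Nodal target genes tested, 3 fell in the iPS lines, Lefty1 and Lefty2 among them, 1 rose (Eomes) and 3 did not pass, with 5 of the 7 at an unadjusted p under 0.05. Eomes, a T-box gene of mesoderm and trophoblast, was at -1.59 in line 7 and -1.54 in line 13, against -3.61 in ES cells (log2 difference 2.04, SE 0.095, limma adjusted p = 0.0425). The Eomes call was lost without the filter on dim probes (limma adjusted p = 0.157) and with the authors' deposited value table (limma adjusted p = 0.0550), and its difference was 1.33 with normexp. Skil, a SMAD co-repressor, differed by -0.09 (SE 0.093). The list therefore split in direction, and its median was -0.34, against -0.05 over all genes. Markers of trophoblast, a lineage that uses Eomes, were higher in both iPS lines for 5 of 5 genes with 2 past the threshold. Their summed linear level was 11.5 in line 7 and 12.1 in line 13, against 5.88 in ES cells. Most of each sum was Tfap2c, at 3.28 in line 7 and 3.38 in line 13, against 2.39 in ES cells, which did not pass (limma adjusted p = 0.0597). Hand1 differed 2.47-fold between the lines. Elf5 and Hand1 were not well above background in ES cells, and the part of trophoblast-like cells in the Eomes value was not tested.

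On the BMP side, Id2 was the 1 of 11 BMP target genes tested that passed for iPS against ES cells, although 8 of the 11 stood higher and 9 had an unadjusted p under 0.05. Their median was 0.53, against -0.05 over all genes, of which 44.2% stood higher. Dusp9, an ERK phosphatase that BMP4 induces in mouse ES cells, was at 3.93 in line 7 and 3.78 in line 13, against 2.93 in ES cells (log2 difference 0.93, SE 0.12, limma adjusted p = 0.0665). Smad6, the inhibitory SMAD of the BMP branch, was at -0.52 in line 7 and -0.60 in line 13, against -1.26 in ES cells (log2 difference 0.70, SE 0.10, limma adjusted p = 0.0738). Id4, chosen after its values were seen to complete the Id family, stood lower like Id1, at 0.77 in line 7 and 0.75 in line 13, against 1.20 in ES cells (log2 difference -0.43, SE 0.093, limma adjusted p = 0.110). The second Id4 probe gave -0.55. Fibroblast markers stood higher in the iPS lines as well, with 9 of 10 above the ES level, a median difference of 0.22 and none past the limma threshold or at an unadjusted p under 0.05. Their part in the BMP target values was not tested.

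No BMP ligand of 9 tested and no BMP receptor of 9 tested passed in limma for iPS against ES cells, with 3 ligands and 1 receptor at an unadjusted p under 0.05. The ligand list counts the related genes Gdf3, Gdf5 and Gdf9 with the Bmp genes. The receptor list counts the co-receptor genes Eng, Rgma, Rgmb and Hjv with the type I and type II receptors. Bmp8b, a ligand of the germ line, was at -1.07 in line 7 and -1.40 in line 13, against -2.79 in ES cells. That is more than 2-fold higher in both lines, with a log2 difference of 1.55 (SE 0.19) that did not pass (limma adjusted p = 0.0636). Bmp5 was well above background in ES cells alone. Acvr1, the other broadly expressed type I receptor, differed by 0.30 (SE 0.11), and Bmpr1b, a further type I receptor, by 0.25 (SE 0.19).

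Of the secreted BMP antagonists none of 8 tested passed in limma against ES cells, with 4 at an unadjusted p under 0.05. Noggin (Nog) differed by -0.34 (SE 0.14), chordin (Chrd) by -0.07 (SE 0.10) and Nbl1 by 0.39 (SE 0.14). The SMADs were close as well, with none of 6 past the limma threshold and 2 at an unadjusted p under 0.05. Smad1, the BMP effector, differed by -0.21, Smad2, the Nodal effector, by -0.08 and the shared partner Smad4 by -0.32, each with an SE of 0.092. The other probe of Smad4 gave 0.02. Of 9 SMAD regulators none passed in limma (1 at an unadjusted p under 0.05), with Smurf1 at 0.18, Smurf2 at 0.05 and Tgif1 at -0.16 in log2 difference. None of 7 TGF-beta ligands and receptors passed in limma (1 at an unadjusted p under 0.05), and 6 of them stood higher, Tgfb1 by 0.39 (SE 0.13) and Tgfb2 by 0.46 (SE 0.16). Among bHLH genes, the E protein genes Tcf3 and Tcf4, which Id proteins bind, differed by -0.10 and -0.11. Hes1, a Notch target, differed by -0.73 (SE 0.098, limma adjusted p = 0.0680), and none of the 8 passed in limma, with 4 at an unadjusted p under 0.05.

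Against BMMNCs more genes passed in each list than against ES cells, as over all genes, where 75.6% passed against BMMNCs (38.3% higher and 37.4% lower) and 4.78% against ES cells. Of the 6 SMADs tested, 2 rose (Smad4 and Smad6) and 1 fell, with a median of -0.10. Smad4 was 0.60 higher by its brighter probe (SE 0.092, limma adjusted p = 0.0147) and 2.29 higher by the other. Smad6 was 0.80 higher (SE 0.10, limma adjusted p = 0.00995). Smad1 was at 1.31 in line 7 and 1.32 in line 13, against 1.19 in BMMNCs (limma adjusted p = 0.316). By contrast, 8 of 9 SMAD regulators rose, among them the ubiquitin ligase Smurf1 by 3.16 (SE 0.094, with 2.20 by its other probe) and the co-repressors Tgif1 by 4.01 (SE 0.11) and Skil by 1.77 (SE 0.093).

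Ligands were mostly higher in the iPS lines than in BMMNCs. Of the BMP ligand list 7 of 9 rose, Gdf3 and Gdf9 among them, as did 3 of 4 Nodal and activin ligand and convertase genes, and none fell. Inhba rose by 4.97 (SE 0.12) and Inhbb by 6.05 (SE 0.093). Among receptors, 6 of 9 on the BMP side rose and 3 fell, and 3 of 5 on the Nodal and activin side rose. Acvr1 rose by 2.71 (SE 0.11) and Acvr2b by 5.03 (SE 0.092), and Acvr1b did not pass (log2 difference -0.54, SE 0.28). Tgfb1, the TGF-beta of blood cells, fell by 1.90 (SE 0.13), whereas Tgfb3 rose by 7.06 (SE 0.11). Ltbp1, which stores latent TGF-beta in matrix, gave 4.30 by its brighter probe and -1.54 by the other, so its direction is uncertain.

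Secreted BMP antagonists split, with 6 of 8 risen and 2 fallen. Nog fell by 1.29 (SE 0.14) and Chrd fell by 0.71 (SE 0.10), while Nbl1 rose by 5.61 (SE 0.14). Grem1, which binds BMP2 and BMP4, was chosen after its values were seen. It was not well above background in BMMNCs, and the excess in iPS lines was at least 51.6-fold, against 15.2-fold with normexp. The limma test took the dim BMMNC value of Grem1 as read, with a log2 difference of 7.49 (limma adjusted p = 0.000709). Grem1 is also made by fibroblasts, whose markers were at a median of at least 6.21 log2 units above BMMNCs, with the 6 of 10 that were not well above background there at their bound, and the part of feeder RNA was not tested. Of the 11 BMP target genes tested 10 rose, with Dusp9 6.95 higher by its brighter probe (SE 0.12) and 5.05 higher by the other, and all 7 Nodal target genes tested rose. With genes not well above background in BMMNCs at their lower bound, the median was 2.50 for the BMP targets and 2.17 for the Nodal targets. Of the 8 bHLH genes 3 rose and 4 fell. Lyl1, a bHLH factor of blood progenitors, fell by 9.34 (SE 0.11), Tcf3 fell as well and Hes1 rose by 4.03 (SE 0.098). Tcf4 was 0.89 lower by its brightest probe, but its other probes gave -0.08 and 0.84. With normexp the differences of dim genes from BMMNCs were smaller, among them 4.51 for Inhbb, 3.30 for Acvr2b, 5.48 for Tgfb3, 5.91 for Dusp9 and 2.95 for Hes1.

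**Figure D5:**
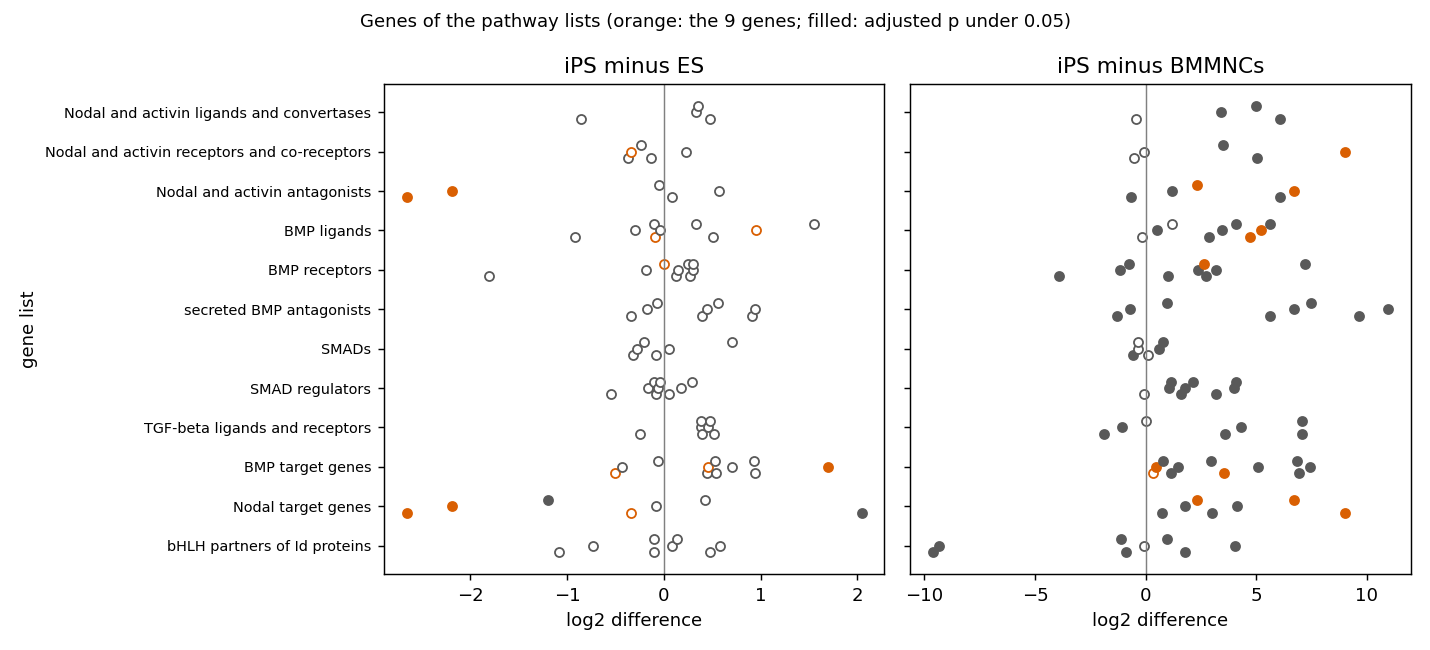
Log2 difference (horizontal axes) of each tested gene by list (vertical axis), iPS minus ES on the left and iPS minus BMMNCs on the right; each point is 1 gene, orange points are the 9 genes, and filled points passed the adjusted p threshold. Filled points are few on the left, where 4.78% of all genes passed, and most points are filled on the right.

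The genes with the most similar profile over the 4 arrays were found by Euclidean distance between log2 levels, each centred on its own mean, among 13033 other genes with a symbol. Values under the lowest signal well above background on an array were first raised to it, so the BMMNC levels of Tdgf1, Lefty2 and several of the genes named here are that floor and not measured. The profile of Tdgf1 was nearest to that of Esrrb, an orphan nuclear receptor of pluripotent cells (distance 0.20), and Trap1a (0.21). Lefty1 was nearest to Fkbp6 (0.30) and Pdcl2 (0.32), and Lefty2 to Fxyd6 (0.55). Gdf3 was nearest to Ltbp4 (0.059), Bmp4 to 5730507C01Rik (0.12) and then Gja1 (0.17), and Bmpr1a to Kank1 (0.020). Of the Id genes, Id1 was nearest to Coq5 (0.019), Id2 to 4933421I07Rik (0.18) and Id3 to Mfap5 (0.062). With 4 arrays these distances describe likeness and carry no test.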

How the data were processed

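RNA was labelled with Cy3 and read on single-colour Agilent mouse arrays with Feature Extraction 9.5.1.1, per the file headers; all 4 arrays lay on 1 slide with 1 scan time. The deposited scanner intensities had the background subtracted and a spatial trend removed on each array, per the file headers. The authors' deposited value table holds linear intensities equal to the processed signal over a single factor for each array, as a comparison of both showed; it was used as an alternative, and how the factors were set is not given in the sources used here.

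Control spots, outlier spots and 14 probes without a usable spot were left out, spots were averaged on the log2 scale, and the array's 75th percentile over probes was subtracted. No spot was saturated. A probe counted as well above background when a share of at least 0.5 of its spots was marked so. Accessions matched the RefSeq gene table of GRCm38.p6 for 22948 of 41160 probes. A gene took its brightest probe on average. The array design uses an older build, and no gene coordinates are given; promoter coordinates are those of the RefSeq table. All 4 arrays entered 1 fit with limma 3.58.1 (R 4.3.3), which had a mean for each group, 1 residual and 1.81 prior degrees of freedom, over 21216 genes above background on at least 1 array, with Benjamini-Hochberg adjustment and a threshold of 0.05. Values not well above background entered the fit as read, and bounds on folds were set afterwards. ES cells against BMMNCs (4-fold) and line 7 against line 13 (2-fold) are single arrays and were described by size alone, without a test. The script was tested on simulated data. Because separate cultures are not stated beyond the line numbers, the p-values reflect spread among these samples only, possibly technical, and 4 arrays limit the precision.

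The genes, lists and tests were chosen with earlier results of these data known. Named genes were the first 2 tested of each list, those past the threshold or 2-fold apart from ES cells in each line, the 2 with the largest difference from BMMNCs measured on both sides, those 2-fold apart between lines, and the 2 nearest profiles of each of the 9 genes; not every such gene is reported here. Alternatives were normexp (offset 50, on median signals, since mean signals were not used here), quantile and median scaling, the authors' table, no filter, a filter on all arrays, the mean of probes, an intensity trend, ES and iPS as 1 group, and each line left out.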

Additional observations from a re-analysis of the deposited data

Results flagged for a closer look

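Among the 9 genes, Id2 went in opposite directions from BMMNCs in the 2 kinds of pluripotent cell. It was 0.47 higher in the iPS lines than in BMMNCs and 1.23 lower in ES cells than in BMMNCs (log2 difference -1.23), and the difference between iPS and ES cells was itself past the threshold (1.70, limma adjusted p = 0.0425). The call between iPS and ES cells was lost without the filter on dim probes (limma adjusted p = 0.157) and with the authors' table (limma adjusted p = 0.0550). The ES minus BMMNC value compares single arrays without a test and is under the 4-fold rule. The rise over BMMNCs is small: it passed in the reported setting (limma adjusted p = 0.0250) and not under median scaling, without the filter on dim probes, or with ES and iPS arrays as 1 group, where the difference was -0.094 (limma adjusted p = 0.931).

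Eomes showed the same pattern, 0.72 higher in the iPS lines than in BMMNCs and -1.32 for ES cells minus BMMNCs, with a difference of 2.04 between iPS and ES cells (limma adjusted p = 0.0425). The excess over BMMNCs passed in 7 of 9 other settings and was 0.041 with ES and iPS arrays as 1 group (limma adjusted p = 0.975). The difference between iPS and ES cells passed in 6 of 8 and was 1.33 with normexp. For Eomes too, ES minus BMMNC compares single arrays without a test.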

How the results depend on the processing

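The count of the 9 genes past the threshold for iPS against ES cells, 3 as reported, was 5 (of 7 left) above background on all arrays, 7 with an intensity trend, 6 with normexp, and 0 without the filter on dim probes or with the authors' table. In these last settings limma called 0 of all genes (4677 and 6634 at an unadjusted p under 0.05). Over all genes 5726, 7586 and 5638 passed above background on all arrays, with a trend and with normexp, against 1015 as reported. Directions of the genes called held in every setting run for iPS against ES cells. Against BMMNCs 6 to 9 genes passed. Under ES and iPS as 1 group Id2 turned to -0.094 (limma adjusted p = 0.931). Median scaling, which lowers the median of all genes against BMMNCs to -0.20, turned Smad1 minus BMMNCs to -0.087, and turned iPS minus ES to 0.013 for Chrd, 0.0039 for Smad2 and 0.080 for Bmpr1a. Bmpr1a minus ES was also 0.073 with the mean of probes, 0.023 with quantile normalization and 0.022 with the authors' table. Bmp5 against BMMNCs turned to -0.51 with normexp. The share of higher calls against BMMNCs moved with scaling, from 8121 higher and 7927 lower to 7104 and 9087 with median scaling, 7457 and 10028 with normexp and 8690 and 7383 with the authors' table. The cause of these changes was not tested. Without line 7 or line 13 no residual degree of freedom is left, so the counts could not be tested. No paired analysis was possible because the groups share no replicate numbers in the labels. Dim signals limit Lefty2 and Tdgf1 in BMMNCs to bounds.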
